A study of Mus musculus with 6 samples.

Results

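Visceral endoderm is the extraembryonic epithelium that surrounds the early mouse embryo and later lines the yolk sac. It takes up maternal proteins, lipids and vitamins through clathrin-coated pits at its outer surface, breaks them down in lysosomes, and secretes plasma proteins and lipoproteins toward the embryo, much as the liver does after birth. When ESCs are aggregated into EBs without LIF, the outer cells form this type of endoderm, and genes of this uptake and secretion system are widely used to follow it. Expression of 9 such genes was examined, chosen by symbol from the RNA-Seq table. These are *Lrp2*, *Cubn*, *Amn* and *Dab2*, which serve endocytosis, and *Apob*, *Apoa1*, *Apoe*, *Ttr* and *Afp*, which encode secreted proteins. Each symbol matched 1 of the 21639 gene entries, and all 9 are described.

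The 6 libraries were made from mouse ESC lines labelled with the strain V6.5 (129SvJaexC57BL/6), each harvested before (ESCs, D0) and after aggregation into EBs (D3), which gives 1 library per condition. WT and AP3 cells carried a doxycycline-inducible, CMV-driven H2A.Z fused to YFP, either wild type (H2AZ WT) or with 3 acidic patch residues replaced by those of H2A (H2AZ-AP3 variant). They were sorted for YFP and given hairpins against the 3′ UTR of the endogenous gene, so the depletion aimed at in the KD cells (H2AZ KD) is shared by the WT and AP3 cells. ESCs were grown on fibroblast feeders until the final passage, and EBs were grown without LIF. No condition has replicates, so no difference below has a replicate check or a p-value. Intervals cover counting error only, from reads estimated per gene.

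Depth was estimated at between 20240000 and 31600000 reads, the deepest library being AP3 at D0, and between 11644 and 11802 genes reached 1 RPKM (mapped reads scaled to transcript length and library size). *H2afz*, the hairpin target, was at 279 RPKM in WT, 343 in KD and 304 in AP3 ESCs. In EBs of the same lines its levels were 258, 236 and 394 RPKM. It was not lower under the KD label at D0, so these values do not check that label, and the line is called the library labelled KD. Reads from the transgene coding sequence map to the same gene. *Pou5f1*, the pluripotency factor OCT4, lay between 358 and 540 RPKM in all 6 libraries. Of 7 pluripotency genes found, 2 were past 1.5-fold lower in WT EBs than in WT ESCs, against 16.5% of all genes. None was higher, against 14.1%. *Klf4*, 1 of these 2 and named after its values were seen, was at 121 RPKM in WT ESCs and 17.4 RPKM in WT EBs. *Alb*, which marks hepatocytes, reached at most 0.0290 RPKM, and the macrophage marker *Emr1* was listed at 0 in all 6 libraries. Other markers on the same lists were present, the hepatocyte marker *Cyp2e1* at 1.94 to 3.46 RPKM and the macrophage marker *Cd68* at 6.31 to 13.3 RPKM.

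At D0 the uptake genes were already present at low levels, while the secreted proteins other than *Apoe* were close to the limit of detection. *Apoe*, a ligand of lipoprotein receptors that many cell types express, was by far the highest member at 459 RPKM in WT ESCs. *Dab2*, the clathrin adaptor that binds the tails of such receptors, followed at 9.25 RPKM, and *Lrp2*, which encodes the giant multiligand receptor megalin, at 5.29 RPKM. *Cubn*, which encodes cubilin, the receptor for intrinsic factor with vitamin B12 and for several lipoproteins and carriers, was at 2.64 RPKM. *Amn*, whose transmembrane product amnionless anchors cubilin and brings it to the cell surface, was at 1.47 RPKM. RPKM is scaled to transcript length, so these levels can be compared roughly between genes. How evenly reads covered each transcript was not checked.

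**Figure D1:**
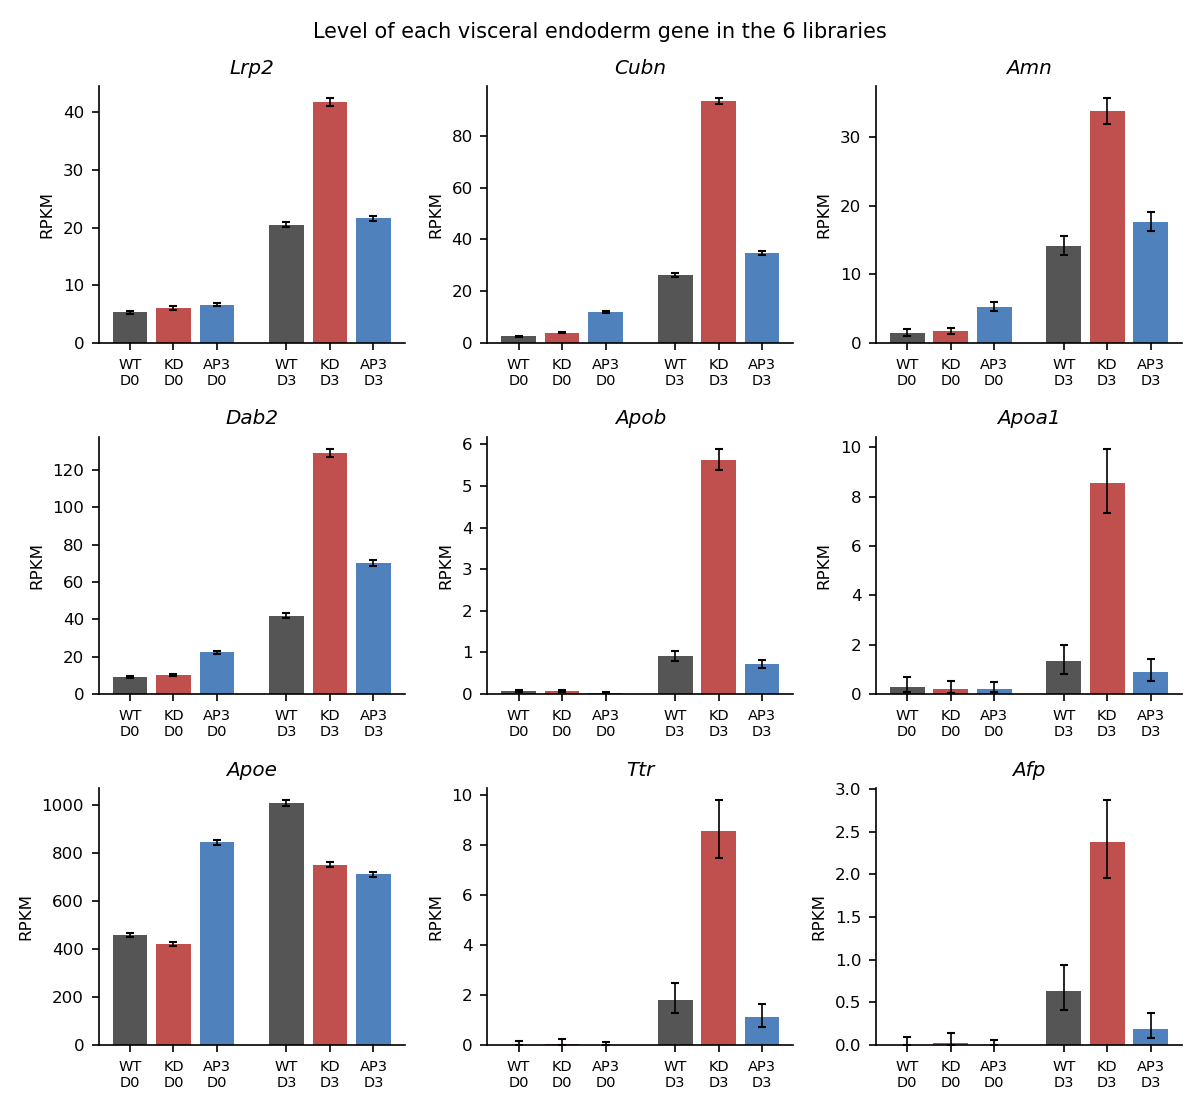
Bars give RPKM of each gene in the 6 libraries, 1 library per bar, with WT in grey, KD in red and AP3 in blue. Lines are 95% Poisson intervals for counting error. Outside *Apoe*, the highest bar of every gene is KD at D3.

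*Apoa1*, the main protein of high-density lipoprotein, was at 0.288 RPKM in WT ESCs, or about 4.88 estimated reads. *Apob*, the structural protein of very-low-density lipoprotein, was at 0.0662 RPKM. *Ttr*, the carrier of thyroxine and of the retinol-binding protein complex, and *Afp*, the fetal relative of albumin, were listed at 0 in the WT and AP3 ESC libraries. In the ESC library labelled KD they were at 0.0430 and 0.0245 RPKM, each about the value of 1 read.

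All of the 9 genes were more than 1.5-fold higher in WT EBs than in WT ESCs (log2 threshold, 0.58). Of all genes, 14.1% were higher in that comparison. The median log2 change of the members was 3.27, against 0 over all genes. It depends on how genes near 0 are treated, and was 2.19 without the members under 1 RPKM on both days and 1.49 with 1 RPKM added to each value. The 2.19 is a description, since *Ttr* and *Apoa1* reached 1 RPKM only at D3, where they are high. *Cubn* was at 2.64 RPKM at D0 and 26.2 RPKM at D3, 9.93-fold higher (95% interval for counting error, 9.13 to 10.8). *Amn* was 9.64-fold higher (7.06 to 13.4), at 14.2 RPKM in EBs. Both subunits of the cubilin and amnionless complex were thus higher by a similar factor, and the ratio of *Cubn* to *Amn* was 1.79 at D0 and 1.85 at D3. *Dab2* was 4.52-fold higher (4.20 to 4.88), at 41.8 RPKM, and *Lrp2* 3.88-fold (3.67 to 4.10), at 20.5 RPKM. The order of *Lrp2* and *Cubn* turned round between the days, with *Lrp2* at 2.01 times *Cubn* in ESCs and at 0.784 times in EBs.

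The secreted proteins entered the measurable range in WT EBs. *Ttr* was at 1.81 RPKM, *Apoa1* at 1.32, *Apob* at 0.904 and *Afp* at 0.633 RPKM. The counting intervals of *Ttr* and *Apoa1* overlap, as do those of *Apoa1* and *Apob* and those of *Apob* and *Afp*, so the order within each pair is not resolved. *Apob* was 13.7-fold higher than in ESCs (8.51 to 23.2) and *Apoa1* 4.59-fold (1.68 to 15.7). *Apoe* was 2.20-fold higher (2.15 to 2.25), at 1009 RPKM, which made it the 59th highest of all entries in that library. In this comparison 7 members reached 1 RPKM in either library, and *Apob* and *Afp* did not.

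The same 9 genes were past 1.5-fold higher from D0 to D3 in the libraries labelled KD, where 14.0% of all genes were higher, with a median log2 change of 4.56 (2.997 with 1 RPKM added). *Cubn* was at 3.95 RPKM at D0 and 93.3 RPKM at D3, 23.6-fold higher (22.1 to 25.3). *Amn* was 19.97-fold higher (15.2 to 26.8) and *Dab2* 12.7-fold (11.9 to 13.6). *Apob* was at 0.0638 and 5.62 RPKM, 88.2-fold higher (55.9 to 148), and *Apoa1* at 0.199 and 8.57 RPKM, 43.1-fold (15.6 to 181). The ESC level of *Apoa1* rested on about 3.49 reads, which makes its interval wide. *Ttr* and *Afp* started from about 1 read each, with ratios of 199 (33.4 to 10349) and 97.3 (16.8 to 4249.9).

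In AP3 cells 8 of the 9 genes were past the threshold from D0 to D3, where 14.7% of all genes were higher, with a median log2 change of 1.75 (1.07 with 1 RPKM added). The exception was *Apoe*, at 846 RPKM in ESCs and 712 RPKM in EBs, a log2 change of −0.25. The changes of the 4 uptake genes lay close together, at log2 1.52 for *Cubn*, 1.65 for *Dab2*, 1.70 for *Lrp2* and 1.75 for *Amn*. The counting interval of *Cubn* (1.47 to 1.58) still lies below those of *Dab2* (1.59 to 1.71) and *Lrp2* (1.64 to 1.76). In WT the changes of the 4 genes were spread from 1.96 to 3.31. The AP3 change minus the WT change was −1.79 on the log2 scale for *Cubn*, −1.51 for *Amn*, −0.52 for *Dab2* and −0.25 for *Lrp2*. *Apob* was 22.8-fold higher in AP3 EBs than in AP3 ESCs (13.2 to 42.9), which overlaps its WT interval. In AP3 6 members reached 1 RPKM on either day, *Ttr* only at D3, where it is high. *Apob*, *Apoa1* and *Afp* did not, and among all genes that did, 11.2% were higher.

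**Figure D2:**
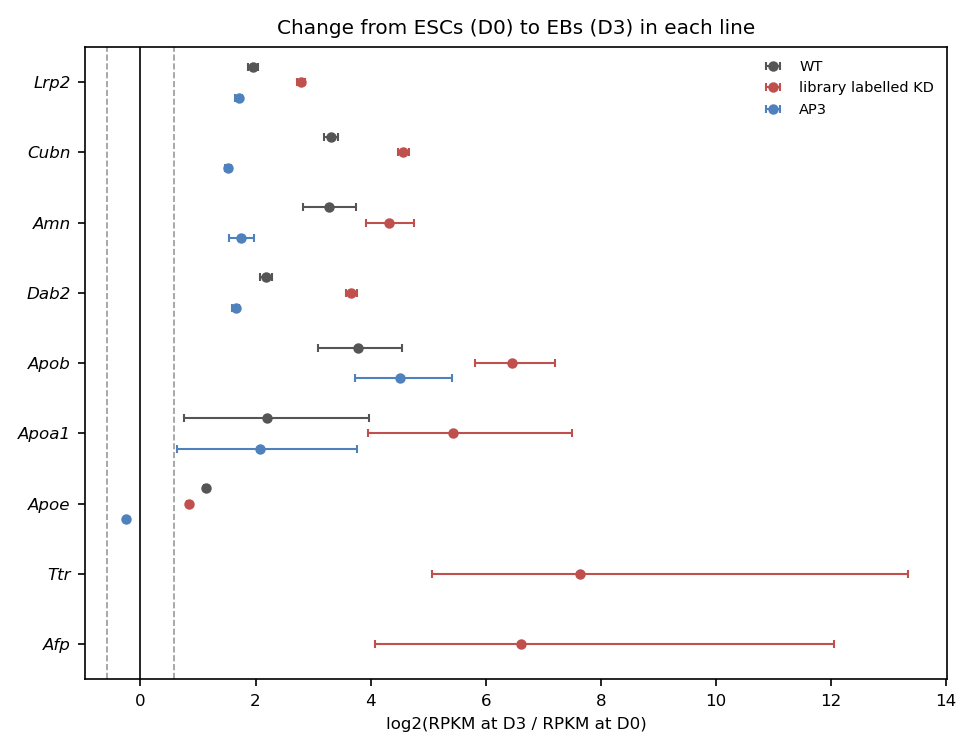
Each point is log2(RPKM at D3 / RPKM at D0) of a gene in 1 line, with the 95% interval for counting error; dashed lines mark 1.5-fold. KD points lie farthest right for *Lrp2*, *Cubn*, *Amn*, *Dab2*, *Apob* and *Apoa1* but not for *Apoe*. *Ttr* and *Afp* have a point only in KD, because they were listed at 0 in WT and AP3 ESCs, so their lines are not compared.

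The EB library labelled KD held more of 8 of the 9 transcripts than WT EBs did, each by more than 1.5-fold, and 9.41% of all genes were higher in that comparison. The exception was *Apoe*. The members' median log2 difference was 1.83, against 0 over all genes. All of the 9 reached 1 RPKM in 1 or both of these libraries. As *H2afz* does not check the KD label, the direction is that of the libraries as labelled. In bulk RNA, more cells of a type and more RNA per cell cannot be told apart.

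*Apoa1* and *Apob* had the largest ratios between those EB libraries, but their counting intervals overlap those of *Ttr* and *Afp*, so the order is not resolved. *Apoa1* was at 8.57 RPKM in the library labelled KD and 1.32 RPKM in WT, 6.498-fold higher (4.17 to 10.6). *Apob* was at 5.62 against 0.904 RPKM, 6.22-fold higher (5.45 to 7.12). *Ttr* was at 8.57 and 1.81 RPKM, 4.74-fold higher (3.34 to 6.91), and *Afp* at 2.38 and 0.633 RPKM, 3.76-fold (2.41 to 6.11). *Apoa1*, *Apob* and *Ttr* ranked 26th, 27th and 33rd by increase among the 11956 genes that reached 1 RPKM in either library, and *Afp*, *Cubn* and *Dab2* 40th, 42nd and 51st. *Apob* and *Afp* reached that limit only in the library labelled KD, where they are high, so their ranks are a description. Summed RPKM of these 4 secreted genes, without *Apoe*, which was set apart after its values were seen, was 4.66 in WT EBs and 25.1 in the library labelled KD, a ratio of 5.39.

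The uptake genes were higher there by smaller factors than *Apoa1*, *Apob*, *Ttr* and *Afp*. The order is not resolved for *Cubn*, *Dab2* and *Amn* against *Afp*, or for *Cubn* against *Ttr*, as their counting intervals overlap. *Cubn* was at 93.3 RPKM against 26.2, 3.56-fold higher (3.46 to 3.67), and *Dab2* at 129 against 41.8 RPKM, 3.08-fold (2.97 to 3.20). *Amn* was at 33.7 against 14.2 RPKM, 2.38-fold higher (2.13 to 2.66), and *Lrp2* at 41.7 against 20.5 RPKM, 2.04-fold (1.98 to 2.10). The sum of the 4 was 298 against 103 RPKM, a ratio of 2.90. The ratio of *Cubn* to *Amn* was 2.77 in the EB library labelled KD, 1.85 in WT EBs and 1.97 in AP3 EBs. In ESCs it was 2.34 in the library labelled KD, 2.30 in AP3 and 1.79 in WT, where *Amn* rested on about 52.7, 245 and 44.4 reads. Neither the difference between KD and WT nor that between AP3 and WT is resolved in ESCs. *Amn* ranked 97th and *Lrp2* 158th by increase. *Apoe* was at 752 against 1009 RPKM, a ratio of 0.746 (0.732 to 0.759).

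**Figure D3:**
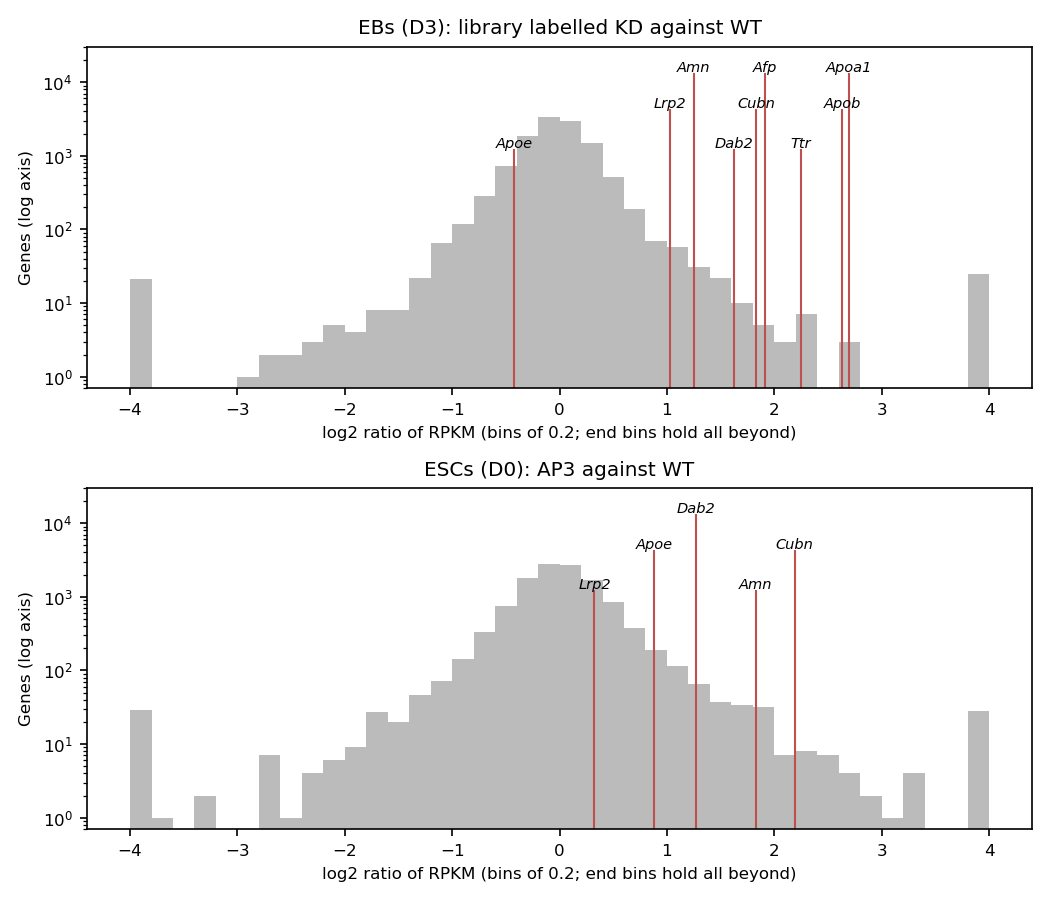
Grey bars count genes by log2 ratio, among those that reached 1 RPKM in either library (log vertical axis; the end bins hold everything beyond 4 in either direction), and red lines mark the members that passed the same limit. In the upper panel 8 members lie between 1.03 and 2.70 and *Apoe* at −0.42, and in the lower panel *Cubn* is farthest right at 2.19.

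At D0 the library labelled KD was close to WT for these genes. Past 1.5-fold, 2 of the 9 members counted as higher and none as lower, against 8.96% and 10.7% of all genes. The 2 were *Ttr* and *Afp*, with about 1 read each against none, and the members' median log2 difference was 0.20. Of the genes that reached 1 RPKM, which leaves out *Ttr*, *Afp*, *Apob* and *Apoa1*, 3.37% were higher. *Cubn*, at 3.95 RPKM against 2.64, lay just under the threshold (1.499-fold; 1.35 to 1.66), and passed it at log2 0.62 once the libraries were centred on their median ratio. *Lrp2* was 1.15 times as high as in WT (1.07 to 1.22), *Amn* 1.15 times (0.755 to 1.75) and *Dab2* 1.10 times (1.00 to 1.21). *Apoe* was at 421 RPKM against 459, a ratio of 0.918 (0.893 to 0.943). The factors of 2.04 or more seen for the uptake genes in EBs lie above all of these intervals.

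AP3 ESCs showed another pattern, in which 3 of the 4 uptake genes and *Apoe* were higher than in WT ESCs and the other secreted proteins were not. Past 1.5-fold, 4 of the 9 genes were higher and 1 was lower, against 11.1% and 13.9% of all genes. The members' median log2 difference was 0.33, against 0 over all genes, and 1.27 without the 4 members that did not reach 1 RPKM in either library. *Cubn* was at 12.03 RPKM in AP3 ESCs and 2.64 RPKM in WT ESCs, 4.57-fold higher (4.19 to 4.98). *Amn* was at 5.22 against 1.47 RPKM, 3.55-fold higher (2.57 to 5.00), and *Dab2* at 22.4 against 9.25 RPKM, 2.42-fold (2.24 to 2.61). *Apoe* was at 846 against 459 RPKM, 1.84-fold higher (1.80 to 1.88). *Lrp2* was at 6.62 against 5.29 RPKM, 1.25-fold higher (1.18 to 1.33), under the threshold. The megalin gene thus differed least of the 4, while for its adaptor and both subunits of its partner complex the lower bounds were 2.24-fold or more.

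*Apob* was the lower member in AP3 ESCs, at 0.0313 against 0.0662 RPKM, from about 13.6 and 18.5 estimated reads (ratio 0.472; 0.216 to 1.006). *Apoa1* was at 0.212 against 0.288 RPKM (ratio 0.737; 0.179 to 3.15), and *Ttr* and *Afp* were listed at 0 in both. The intervals of *Apob* and *Apoa1* include 1, so no difference was detectable at this depth, although that of *Apob* lies below the increases of *Cubn*, *Amn* and *Dab2*. These 4 secreted genes did not reach 1 RPKM in either library. Of the 12162 genes that did, 6.07% were lower, and *Cubn* ranked 56th and *Amn* 88th by increase. In the same comparison 2 of 7 pluripotency genes were lower and none higher, against 13.9% and 11.1% of all genes (median log2, −0.061). All 7 reached 1 RPKM, and of all genes that did, 6.07% were lower and 7.79% higher. These were *Sox2* at 109.7 against 191 RPKM and *Klf4* at 65.9 against 121 RPKM, while *Pou5f1* was at 540.5 against 421 RPKM. Of 13 parietal endoderm markers 8 were higher and 2 lower there, and of 10 fibroblast markers 6 were higher and 1 lower. Of all genes, 11.1% were higher and 13.9% lower. The part of either kind of cell in the difference was not tested.

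**Figure D4:**
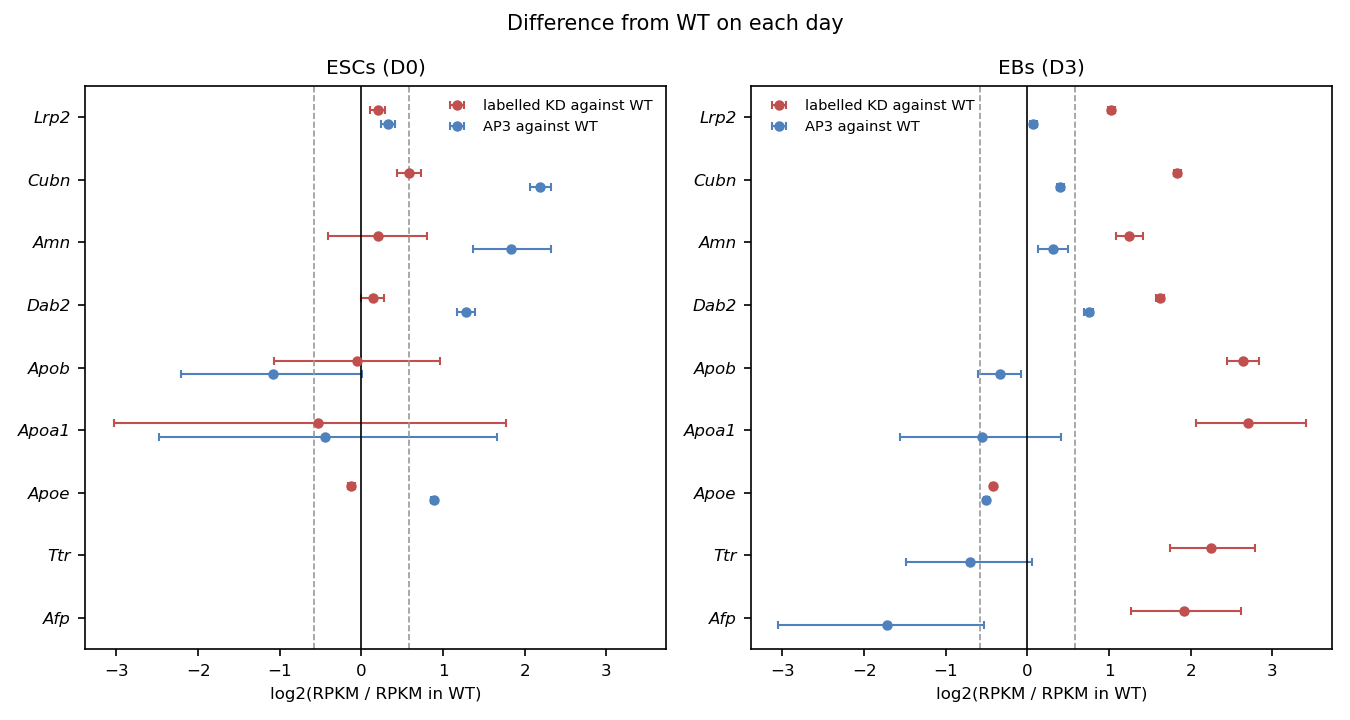
Points give log2(RPKM / RPKM in WT) in ESCs (left) and EBs (right) for the library labelled KD (red) and for AP3 (blue), with 95% intervals for counting error; dashed lines mark 1.5-fold. *Ttr* and *Afp* have no point in ESCs, where WT was listed at 0. In EBs the blue points of the uptake genes lie to the right of 0 and those of all 5 secreted genes to the left.

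In EBs 1 of the uptake genes passed the threshold between AP3 and WT. *Dab2* was the 1 member past 1.5-fold higher, against 10.4% of all genes, at 70.3 RPKM in AP3 EBs and 41.8 RPKM in WT EBs (1.68-fold; 1.62 to 1.75). *Cubn* was at 34.6 against 26.2 RPKM (1.32-fold; 1.28 to 1.37), *Amn* at 17.6 against 14.2 RPKM (1.24-fold; 1.09 to 1.41) and *Lrp2* at 21.6 against 20.5 RPKM (1.052-fold; 1.02 to 1.09). All 4 uptake genes had a ratio above 1. The 5 secreted genes all had a ratio below 1, and 2 of the 9 members were past 1.5-fold lower, against 11.7% of all genes. The median log2 difference was −0.34, against 0 over all genes, and its sign turned, to 0.074, when *Apob* and *Afp*, which did not reach 1 RPKM in either library, were left out. *Ttr* was at 1.10 against 1.81 RPKM (ratio 0.611; 0.355 to 1.04) and *Afp* at 0.192 against 0.633 RPKM (0.304; 0.1202 to 0.691), from about 8.32 and 24.2 reads. *Apob* was at 0.714 against 0.904 RPKM (0.790; 0.657 to 0.949), *Apoa1* at 0.896 against 1.32 RPKM (0.679; 0.340 to 1.33) and *Apoe* at 712 against 1009 RPKM (0.705; 0.692 to 0.719). Of the genes that reached 1 RPKM in either library, 5.98% were lower.

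For the 4 uptake genes and *Apoe*, AP3 was above the library labelled KD in ESCs and below it in EBs, although *Lrp2* in ESCs (log2 0.13) and *Apoe* in EBs (−0.080) were within the threshold. *Apob*, *Ttr* and *Afp* were listed below it on both days, in ESCs from few reads, and the ESC interval of *Apob* includes 1 (ratio 0.491; 0.225 to 1.045). This comparison and the 2 above share libraries. In ESCs 4 members were past 1.5-fold higher in AP3 than in the library labelled KD and 3 were lower, against 13.5% of all genes in each direction. The median log2 difference was 0.13, against 0 over all genes, and 1.139 without the 4 members under 1 RPKM in both. The 4 were *Amn* (3.10-fold; 2.29 to 4.25), *Cubn* (3.05-fold; 2.84 to 3.27), *Dab2* (2.20-fold; 2.05 to 2.37) and *Apoe* (2.01-fold; 1.97 to 2.05). The 3 lower genes were *Apob*, *Ttr* and *Afp*, none of which reached 1 RPKM, and of the genes that did, 6.74% were lower. In EBs 8 of the 9 were lower in AP3 and none higher, against 11.1% and 11.6% of all genes, with a median log2 difference of −1.43, against 0 over all genes. The library labelled KD was above AP3 by 12.4 times for *Afp*, 9.56 times for *Apoa1*, 7.88 times for *Apob* and 7.76 times for *Ttr*. The same ratio was between 1.83 and 2.70 for the 4 uptake genes and 1.06 for *Apoe*.

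*Apoe* varied least of the 9 genes. Its 6 levels spanned 1.26 on a log2 scale, computed with 0.1 RPKM added, and the other members spanned between 2.96 and 6.44. Over the 6 libraries Pearson's r of those log2 levels lay between 0.858 and 0.993 in the 28 pairs of members without *Apoe* (median, 0.950). In the 8 pairs with *Apoe* it lay between 0.464 and 0.761. These are descriptions over 6 libraries, 3 of each day, which share the difference between the days. *Apoe* was highest in WT EBs at 1009 RPKM, followed by AP3 ESCs at 846, KD EBs at 752 and AP3 EBs at 712 RPKM, and the WT and KD ESC libraries were at 459 and 421 RPKM. None of these neighbours had overlapping counting intervals, which do not include the spread between cultures.

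Endoderm transcription factors were examined as a list of 12, all of them found. In WT EBs against WT ESCs, 9 were past 1.5-fold higher and 2 lower, against 14.1% and 16.5% of all genes. In the EB library labelled KD against WT EBs, 6 were higher and none lower, against 9.41% and 11.3% of all genes, with a median log2 difference of 0.56. All of these 6 reached 1 RPKM in either library, as did 9 of the 12, and of all genes that did, 3.71% were higher and 4.88% lower. In ESCs of the same pair 6 were higher and 1 lower, against 8.96% and 10.7% of all genes (median log2, 0.59). Of the 6 factors that reached 1 RPKM there, 3 were higher and 1 lower, against 3.37% and 4.65% of all genes that did, although *Sox7* reached it only in the library labelled KD and the lower one, *Nr2f2*, only in WT. *Gata4* and *Gata6*, zinc finger factors needed for primitive endoderm, were at 13.7 and 11.1 RPKM in WT EBs and at 23.2 and 17.4 RPKM in the library labelled KD. *Foxq1* was at 7.96 and 15.1, *Sox17* at 5.84 and 7.75 and *Sox7* at 2.83 and 6.27 RPKM. The factors were higher in AP3 ESCs than in WT ESCs as well, in 10 of 12 cases against 11.1% of all genes, with a median log2 difference of 1.36. There *Gata4* was at 12.1 against 3.24 RPKM and *Gata6* at 9.84 against 2.96 RPKM. In AP3 EBs 2 of 12 were higher and none lower than in WT EBs, against 10.4% and 11.7% of all genes (median log2, 0.011).

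Further secreted proteins of visceral endoderm, yolk sac and liver were examined as a list of 23. In EBs 11 were past 1.5-fold higher in the library labelled KD than in WT and 2 lower, against 9.41% and 11.3% of all genes, with a median log2 difference of 0.44. The 11 include *Apoa5*, *Apoc3* and *Fga*, listed at 0 in WT EBs and between 0.0283 and 0.0834 RPKM in the library labelled KD. Of the 12 that reached 1 RPKM in either library, 7 were higher and 1 lower, against 3.71% and 4.88% of such genes, and 2 of the 7, *Apoa4* and *Apoc2*, did so only in the library labelled KD. Of the 6 most abundant, *Mttp*, the lipid transfer protein that loads apolipoprotein B, was at 15.6 against 6.52 RPKM. *Rbp4*, the retinol carrier that binds transthyretin, was at 14.7 against 3.16 RPKM, and *Spink3*, a protease inhibitor, at 32.8 against 20.8 RPKM. *Apoc1*, *Apoa2* and *Trf* were at 39.7, 11.0 and 2.88 RPKM, against 38.6, 14.1 and 2.51 RPKM. In AP3 ESCs against WT ESCs 6 of the 23 were higher and 3 lower, against 11.1% and 13.9% of all genes. Of the 10 that reached 1 RPKM there, 3 were higher and none lower, against 7.79% and 6.07% of such genes, but all 3, *Apom*, *Fgg* and *Spink3*, reached it only in AP3, where they are high. In AP3 EBs 2 were higher and 4 lower than in WT EBs, against 10.4% and 11.7% of all genes, and of the 10 that reached 1 RPKM none was higher and 1 lower, against 4.20% and 5.98% of such genes.

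Of 26 further genes of endocytosis and lysosomal breakdown, 4 were past 1.5-fold higher and 1 lower in the EB library labelled KD than in WT EBs, against 9.41% and 11.3% of all genes. Among them, named after their values were seen, were *Folr1*, a folate receptor, at 21.9 against 9.61 RPKM, the lysosomal protease gene *Lgmn* at 119.7 against 66.5 and the myosin motor gene *Myo6* at 20.6 against 12.4 RPKM. The lower one was *Stab2*, listed at 0 against 0.0346 RPKM. *Lrpap1*, which encodes the chaperone of megalin, was at 103 against 69.2 RPKM, and the clathrin genes *Cltc* and *Clta* were at 164 against 123 and at 164 against 139 RPKM. *Ctsl*, a cathepsin gene, was at 419 against 290 RPKM. Genes of the general coat machinery such as *Ap2m1*, at 70.2 against 80.1 RPKM, were within the threshold, as was the adaptor gene *Gipc1*, at 53.5 against 61.6 RPKM. In AP3 against WT, 3 of the 26 were higher and 1 lower in ESCs, against 11.1% and 13.9% of all genes, and none was higher and 1 lower in EBs, against 10.4% and 11.7%. The lower one was *Stab2* both times, at 0.0322 against 0.0510 RPKM in ESCs and 0.00571 against 0.0346 RPKM in EBs. Of the 25 that reached 1 RPKM in either library, 3 were higher and none lower in ESCs, against 7.79% and 6.07% of such genes. In EBs none of the 25 passed in either direction, against 4.20% and 5.98%.

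**Figure D5:**
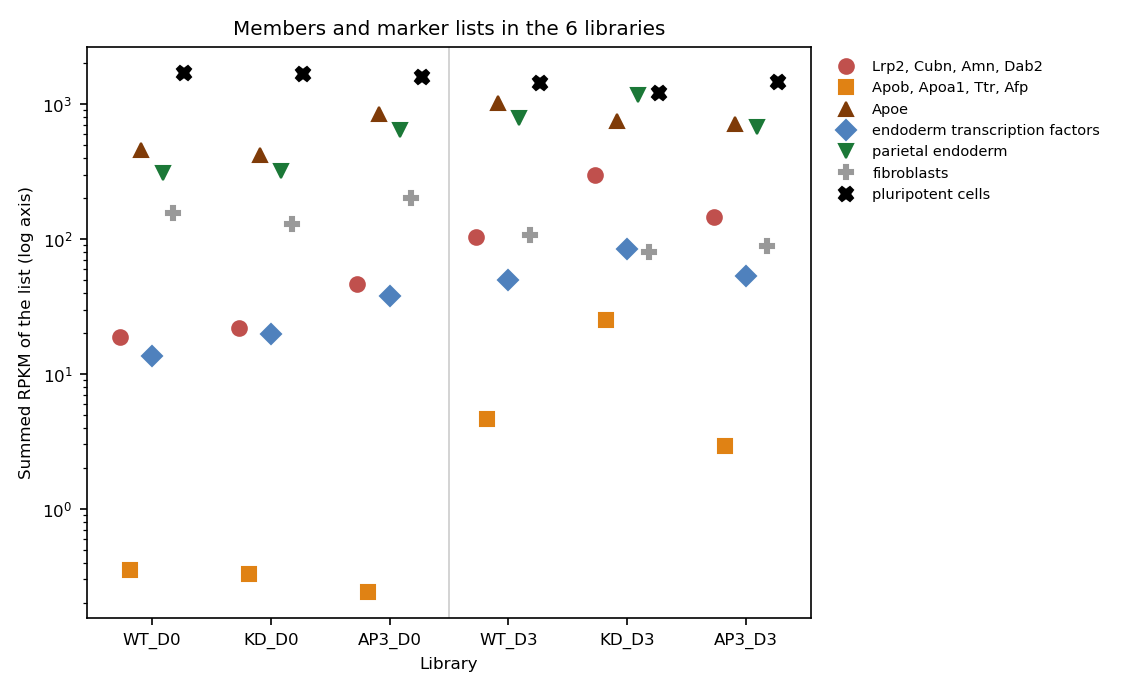
Points give the summed RPKM of the uptake members, of 4 secreted members, of *Apoe* and of 4 marker lists in each library (log vertical axis; ESC libraries left of the vertical line, EB libraries right; points are set apart sideways within a library). The uptake members stand at 18.6, 21.8 and 46.2 RPKM in WT, KD and AP3 ESCs and at 103, 298 and 144 RPKM in EBs, and the parietal endoderm list is also highest in KD EBs.

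Parietal endoderm, the other derivative of primitive endoderm, was followed with 13 markers, all found and none of them at 0 in any library. Their summed level was 309, 318 and 643 RPKM in WT, KD and AP3 ESCs and 789, 1166 and 677 RPKM in EBs. In AP3 ESCs 8 of 13 were higher than in WT ESCs and 2 lower, against 11.1% and 13.9% of all genes. In the EB library labelled KD 4 were higher than in WT EBs and 1 lower, against 9.41% and 11.3%. Of the 6 most abundant, *Sparc* was at 236.7 against 98.4 RPKM in AP3 and WT ESCs, and the laminin genes *Lamc1*, *Lamb1* and *Lama1* were at 98.3 against 61.4, 94.3 against 42.6 and 65.2 against 17.3 RPKM. The collagen genes *Col4a1* and *Col4a2* were at 52.4 against 15.0 and 31.4 against 10.01 RPKM. The 2 lower markers, named after their values were seen, were the keratin genes *Krt8*, at 18.5 against 31.1 RPKM, and *Krt19*, at 3.18 against 4.85 RPKM. Fibroblast markers, which feeder cells would carry, summed to between 130 and 202 RPKM in ESCs and between 79.6 and 107 RPKM in EBs. *Fn1* made up most of each sum, and without it, a choice made after its values were seen, the other 9 summed to 34.0, 28.0 and 56.9 RPKM in WT, KD and AP3 ESCs and to 14.3, 8.07 and 10.8 RPKM in EBs. Of the 10 markers 6 were higher and 1 lower in AP3 than in WT ESCs, against 11.1% and 13.9% of all genes. *Col1a2* was at 22.5 against 12.9 RPKM, while *Postn* was listed at 0 in AP3. The part of these cells in the AP3 ESC differences was not tested. In the EB library labelled KD no fibroblast marker was higher than in WT and 6 were lower, against 9.41% and 11.3% of all genes. Of 7 macrophage markers, *Cd68* was the only one above 1 RPKM in any library, at 10.6 RPKM in KD and 13.3 RPKM in WT EBs. The summed level of 7 hepatocyte markers, most of it *Cyp2e1*, lay between 2.05 and 3.57 RPKM, and *G6pc* was at 0 throughout. The 7 pluripotency markers found summed to 1203 RPKM in the EB library labelled KD and to 1437 RPKM in WT EBs, and none of them passed 1.5-fold there.

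The 5 genes whose pattern was most like the members' mean pattern over the 6 libraries were *Pank4*, *Hnf4a*, *Sccpdh*, *Gabpb1* and *P4ha1*, out of 11834 genes that averaged 1 RPKM or more. Their Pearson's r was between 0.994 and 0.999. *Pank4* and *Gabpb1* followed the pattern at a small scale, with spans of 0.33 and 0.27 in log2. *Hnf4a*, a nuclear receptor active in visceral endoderm and liver, had a span of 3.96, comparable to the members. It was at 0.143, 0.174 and 0.343 RPKM in WT, KD and AP3 ESCs and at 1.32, 3.68 and 1.135 RPKM in EBs. As it was picked for its likeness to the members, its order over the libraries is no separate result.

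The promoters of the members were searched for short motifs of endoderm factors on both strands. RefSeq promoter windows (GRCm38.p6, 250 bases before to 50 after each annotated start) matched 8 of the 9 members, all but *Ttr*. The letters GTTAAT (HNF1) were found in 3 members, *Afp*, *Apoe* and *Dab2*, and in 8.24% of all genes with such windows. The letters searched for GATA factors, AGATAA, were found in 1 member, *Dab2*, and in 12.7% of genes. Those for FOXA, TGTTTAC, were found in *Apoe* and in 4.05% of genes, and those for HNF4, CAAAGTC, in no member and in 5.00% of genes. The 3 HNF1 matches are printed because they are the motif found most often in the members. They lie at chr5:90490597-90490626 (+ strand), chr7:19698553-19698582 (− strand) and chr15:6386671-6386700 (+ strand), and capitals mark these letters, or their reverse complement in *Apoe*:
Afp: gacccctgctctGTTAATtattggcaaatt
Apoe: aaatcgtgttaaATTAACacaaaatggaaa
Dab2: gctttagttcgaGTTAATaaacagttaagt
The match begins at −105 from the annotated start in *Afp*, at −172 in *Apoe* and at −65 in *Dab2*, where *Apoe* has 3 and *Dab2* 2 alternative starts in the table. A match in these letters is a description and shows no binding, and no match says only that the letters are not there.

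In mm9, the build of the deposited table, *Lrp2* and *Cubn* lie on chromosome 2 (69262392 to 69424124 and 13197965 to 13413503, − strand) and have the longest transcripts with *Apob*. Their annotated transcripts have 79 exons over 15460 bases and 67 exons over 11373 bases, and that of *Apob* on chromosome 12 (7984483 to 8023645, + strand) has 29 exons over 13934 bases. *Amn* is also on chromosome 12 (112509322 to 112514637, + strand), with 12 exons and 1685 bases. The shortest is that of *Apoa1* on chromosome 9 (46036713 to 46038549, + strand), at 1035 bases, which leaves few reads at a given RPKM. *Dab2* is on chromosome 15 (6249789 to 6390709, + strand), *Apoe* on chromosome 7 (20281593 to 20284515, − strand) and *Afp* on chromosome 5 (90919740 to 90937933, + strand). An antisense gene is annotated over *Cubn*, *Dab2* and *Ttr*, and the sources used here do not say that reads were counted by strand.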

How the data were processed

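The 9 genes and all gene lists were chosen with earlier results of these data known. Poly(A) RNA of 6 libraries was sequenced, and the authors used Tophat and Bowtie 0.12.7 on single-end reads (mm9), keeping reads with several matches. Cufflinks 1.3.0 gave the RPKM values that they deposited for each gene. Log2 ratios between libraries, which the authors placed in the same table, were not used.

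Differences were computed here as log2((RPKM + 0.001)/(RPKM + 0.001)), and a gene passed at 1.5-fold, the fold of the study. Folds without log2 are plain ratios of RPKM. Since 1 read is worth a fixed step of RPKM at a given length, depth was inferred from low values of genes with 1 annotated transcript over 1500 bases (GENCODE, NCBIM37), with 200 bases taken off each length. Estimated reads gave 95% exact Poisson intervals for levels and conditional binomial (Clopper-Pearson) intervals for ratios. These cover counting error only, since reads carried no molecular identifiers and may be copies of 1 molecule. Members were set beside all genes past the same fold, also among genes that reached 1 RPKM in either library. All 9 members were named, and from other lists at most 6 genes by mean RPKM, apart from those said to be chosen later and single markers. Some list genes are counted but not reported here by name. Alternatives were pseudocounts of 0.1 and 1, that limit, centring on the median ratio and summing entries per symbol. Scripts were tested on simulated data. The tools were scipy 1.17.1, pandas 2.3.3, numpy 2.4.6 and, for plots, matplotlib 3.10.9, under Python 3.11.15.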

Additional observations from a re-analysis of the deposited data

Results flagged for a closer look

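Several genes differed between libraries in one direction in one line or day and in the other direction in another, with counting intervals away from a ratio of 1 on both sides. None of these differences was tested, since each condition has 1 library. *Apoe* was higher at D3 than at D0 in WT (log2 1.137) and in the library labelled KD (0.84), and lower in AP3 (−0.25). Against WT, *Apoe* was higher in AP3 ESCs (0.88) and lower in AP3 EBs (−0.50). Against the library labelled KD, AP3 was higher in ESCs and lower in EBs for *Cubn* (1.61 and −1.43), *Amn* (1.63 and −0.94), *Dab2* (1.139 and −0.87), *Lrp2* (0.13 and −0.95) and *Apoe* (1.007 and −0.080).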

How the results depend on the processing

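No paired analysis was run, and each condition has 1 library. The 3 lines differ in genotype and were not taken as replicates of a day. Centring on the median ratio and summing entries per symbol moved none of the 27 counts and medians, judged by a factor of 1.5 for counts and, for medians, by moves out of the counting interval of the middle gene, and no called member turned direction under any alternative. Centring did bring *Cubn* past 1.5-fold higher in KD than in WT at D0, at log2 0.62. Medians moved with the pseudocount and with the limit of 1 RPKM. With 0.1 the median log2 change from D0 to D3 was 2.60 in WT and 4.32 in KD, and that of KD against WT at D3 was 1.76. With 1 these were 1.49, 2.997 and 1.60, the change in AP3 was 1.07, and KD against WT at D0 was 0.061. With the limit of 1 RPKM the medians were 2.19 for D3 against D0 in WT, 1.27 and 0.074 for AP3 against WT at D0 and D3, the latter with its sign turned from −0.34, and 1.139 for AP3 against KD at D0. Under that limit, as with either other pseudocount, no member was higher in KD than in WT at D0, and none was lower in AP3 than in WT or KD at D0. With the limit 5 members were higher at D3 in AP3, and 1 was lower in AP3 than in WT at D3, against 0 with a pseudocount of 1. Fewer members pass the limit, which by itself lowers these counts. At D0 the secreted genes other than *Apoe* rest on at most 18.5 estimated reads each in a library.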
